A study of Mus musculus with 47 samples.

Results

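The 36 genes described here belong to the integrated stress response, and all 36 listed symbols were found in each of the 5 deposited expression tables, which hold 24507 genes each for unsorted cells and 26182 genes each for sorted cells. RNA came from E14Tg2A, a mouse embryonic stem cell (ESC) line, and the study's title names its subject, the control of p53 by thymine DNA glycosylase (TDG) over the cell cycle. Cells had received an siRNA against Tdg (siTdg) or a control siRNA (siC). ESCs were kept in serum-free N2B27 medium with the inhibitors PD0325901 and CHIR99021, LIF and added non-essential amino acids. The 20 libraries fell into 10 groups of 2: siTdg and siC ESCs at 48 h, siTdg and siC ESCs at 96 h, day 11 embryoid bodies of siTdg and siC cells (EBs, clumps of differentiating ESCs), siTdg ESCs in G2M and in G1, and siC ESCs in G2M and in G1. EBs were grown from ESCs already transfected, and the labels used here give no time after transfection for the sorted cells. Nothing in them says whether the 2 libraries of 1 group stem from different cultures. The spread behind the p-values is that between such libraries, and what part of it is technical was not tested.

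When a cell lacks amino acids or haem, meets a virus or accumulates unfolded protein in the endoplasmic reticulum (ER), one of several kinases phosphorylates the translation factor eIF2. General translation then slows while the mRNA of ATF4, a transcription factor, is translated more, and ATF4 with its partners switches on genes for amino acid synthesis and uptake and, if stress lasts, for cell death. Because ATF4 is controlled in large part at translation, the level of its mRNA is not a measure of the protein.

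Many ATF4 targets carry a C/EBP-ATF response element, a composite site that ATF4 and a C/EBP partner bind. The motif TGATGNAA, or TTNCATCA on the other strand, was searched in the 250 bases before each RefSeq start of build GRCm38.p6, and 31 of the 36 genes had a promoter there. Of these 9 (29%) held it, in 9 of their 39 promoters (23.1%), against 3.45% of all 32851 promoters. The sites below are shown for these genes apart from Herpud1 and Vldlr, 5′ to 3′ on the strand of the gene, with the motif in capitals. They belong to the transcription factors Atf3, Jdp2 and Nupr1, to Chac1, to the synthesis genes Asns and Pycr1, and to the cystine carrier Slc7a11, which held the motif on both strands.
Atf3, chr1:191183422-191183457: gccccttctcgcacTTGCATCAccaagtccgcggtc
Jdp2, chr12:85599369-85599404: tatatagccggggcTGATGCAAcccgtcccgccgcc
Nupr1, chr7:126625559-126625594: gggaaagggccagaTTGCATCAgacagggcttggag
Chac1, chr2:119351035-119351070: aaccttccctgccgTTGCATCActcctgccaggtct
Asns, chr6:7693211-7693246: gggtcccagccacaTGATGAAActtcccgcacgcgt
Pycr1, chr11:120643830-120643865: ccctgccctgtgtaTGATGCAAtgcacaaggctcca
Slc7a11, chr3:50443639-50443693: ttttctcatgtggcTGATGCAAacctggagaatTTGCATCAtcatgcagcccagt

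The ER arm is marked by other sequences. The ER stress response element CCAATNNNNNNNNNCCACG was found in 1 of the 31 genes, Hspa5, and in 0.113% of all promoters, and the shorter element II, ATTGGNCCACG, in 1, Herpud1, and in 0.0304% of all promoters, both searched on either strand. Herpud1 also held the C/EBP-ATF motif, as did Vldlr. The ER element sites of Hspa5 and Herpud1 are shown because in siC cells these 2 genes differed between cell-cycle phases in opposite directions. In siTdg cells the phases of Herpud1 overlapped. The motif is again in capitals and on the strand of the gene.
Hspa5, chr2:34772011-34772057: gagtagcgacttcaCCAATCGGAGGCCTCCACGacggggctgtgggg
Herpud1, chr8:94386363-94386401: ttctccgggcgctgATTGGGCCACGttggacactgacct
A match is a description of these letters, not of binding.

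Tdg was read first as a check of the labels. Levels are in RPKM, here reads scaled to gene length and to a size factor of each library rather than to its total reads. At 48 h Tdg had 7.34 and 13.2 RPKM in siTdg ESCs, against 46.0 and 43.4 RPKM in siC ESCs. In sorted siTdg cells it had 12.3 and 8.63 RPKM in G2M and 9.64 and 7.53 RPKM in G1, against 61.7 and 63.1 RPKM in siC G2M and 54.8 and 59.6 RPKM in siC G1. At 96 h siTdg ESCs had 28.3 and 40.3 RPKM, against 35.8 and 46.0 RPKM in siC ESCs, and day 11 siTdg EBs had 37.3 and 43.7 RPKM, against 35.1 and 38.5 RPKM in siC EBs. Tdg mRNA was thus low in the siTdg libraries at 48 h and after sorting, and overlapped with siC at 96 h and in EBs. Each library held between 20818174 and 41433232 reads in genes, as recovered from the RPKM values. The summed level of 8 pluripotency markers was 3552 to 7707 RPKM in the 16 ESC libraries and 27.4 to 116 RPKM in the 4 EB libraries. In bulk RNA, fewer cells of a type and less RNA per cell cannot be told apart.

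In ESCs the stress response genes spanned a wide range of levels per length, as the heat map of all libraries shows. Over the 16 ESC libraries 6 of the 36 had a median above 100 RPKM and 6 a median under 2 RPKM. Asns, asparagine synthetase, stood highest, with a lowest value of 366 RPKM, a median of 459 RPKM and a highest of 556 RPKM. Eif4ebp1, a repressor of cap-dependent translation, followed at 201, 298 and 372 RPKM, and Hspa5, the ER chaperone BiP, at 188, 290 and 412 RPKM, ranges that overlap each other and that of Asns. Atf4 itself lay at 132, 193 and 237 RPKM. The 6 at the bottom were Atf3, Stc2, Slc6a9, Cebpb, Aldh1l2 and Vldlr, with ESC medians between 0.365 RPKM for Vldlr and 1.47 RPKM for Atf3. Ddit3, the gene of the pro-apoptotic factor CHOP, was at 6.35, 9.65 and 23.1 RPKM, and Chac1, a glutathione-degrading enzyme, at 0.674, 4.80 and 13.3 RPKM. The fewest reads behind any value were 2, for Cbs in an EB library, and 5, for Cebpb in an ESC library.

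**Figure D1:**
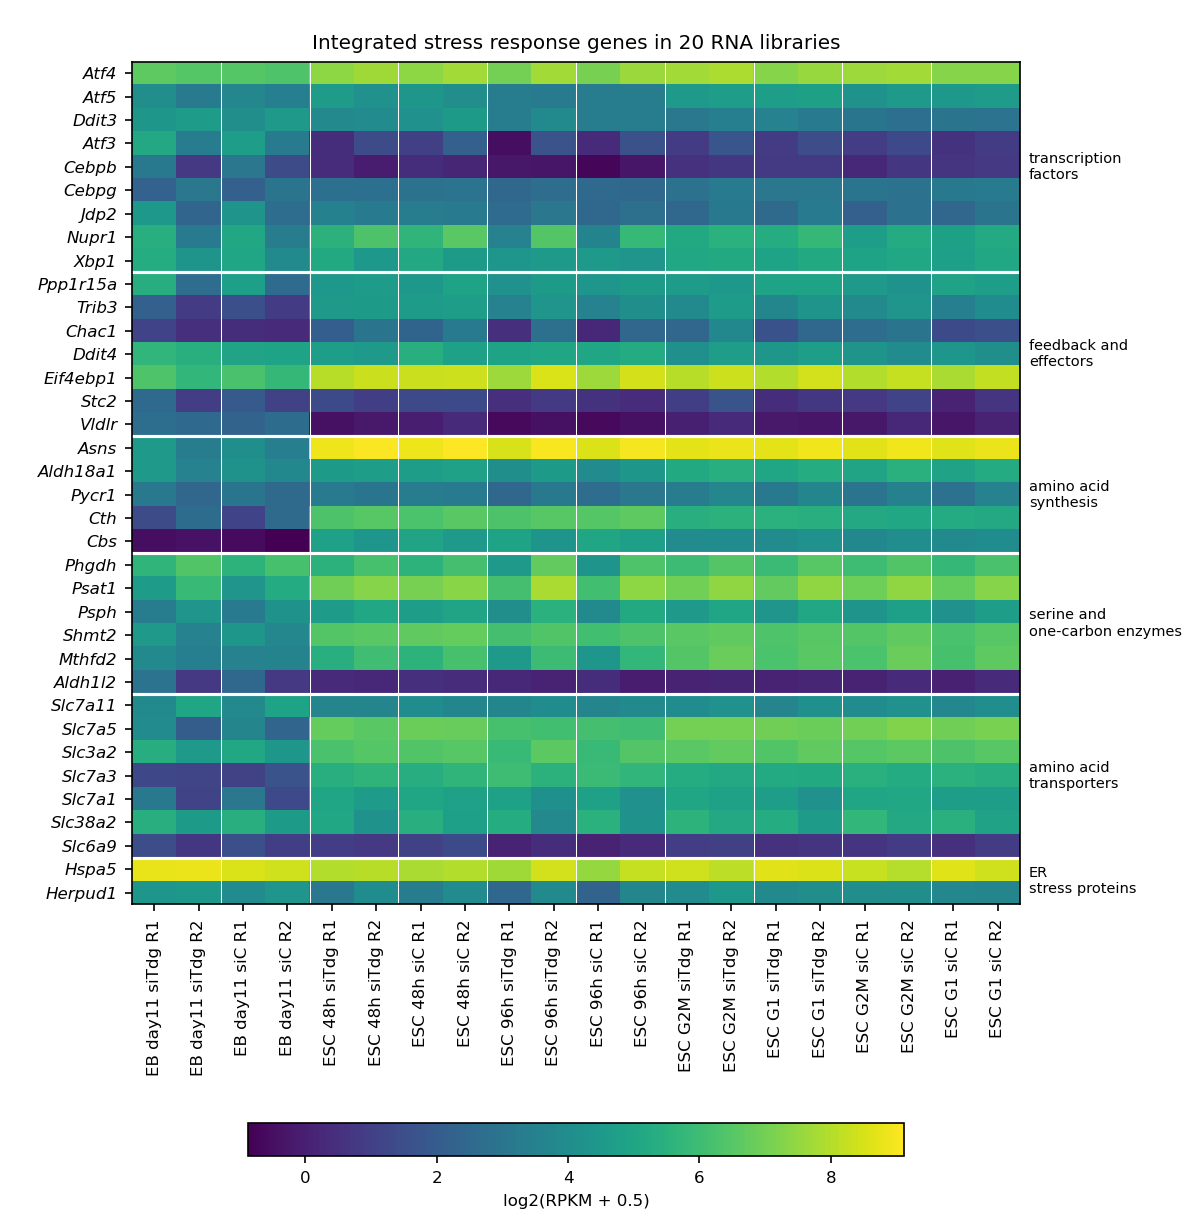
Level of each of the 36 genes (rows, grouped by role) in each of the 20 libraries (columns, EBs left of ESCs, siTdg left of siC and G2M left of G1; R1 and R2 are replicate numbers), as log2(RPKM + 0.5) on the colour scale. Asns is dark in the 4 EB libraries, between 9.66 and 22.2 RPKM, and brightest in ESCs, between 366 and 556 RPKM.

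At 48 h, when Tdg mRNA was lowest among unsorted cells, most stress response genes stood slightly lower in siTdg ESCs than in siC ESCs. Ddit4, which restrains mTORC1, had 25.98 and 22.2 RPKM in siTdg ESCs, against 41.1 and 28.1 RPKM in siC ESCs. Ddit3 had 13.8 and 14.99 RPKM in siTdg ESCs, against 17.7 and 23.1 RPKM in siC ESCs. Slc38a2, a transporter of small neutral amino acids induced by their lack, had 33.0 and 18.5 RPKM in siTdg ESCs, against 42.0 and 26.5 RPKM in siC ESCs. Atf3, a stress-induced repressor, had 0.855 and 2.23 RPKM in siTdg ESCs, against 1.53 and 3.99 RPKM in siC ESCs, and its groups overlapped. The groups of Ddit4 and Ddit3 did not overlap, whereas those of Slc38a2 did, since its replicate 1 libraries stood above the replicate 2 libraries in both groups. The glycine carrier Slc6a9 (1.40 and 1.21 RPKM in siTdg cells, 1.62 and 2.07 RPKM in siC cells) and the mitochondrial serine hydroxymethyltransferase Shmt2 (87.2 and 94.1 RPKM in siTdg cells, 103 and 108 RPKM in siC cells) were also lower in both siTdg libraries.

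In the authors' deposited table at 48 h Ddit4 fell by 0.50 on the log2 scale (SE 0.13, adjusted p = 0.0103) and Slc38a2 fell by 0.43 (SE 0.09, adjusted p = 0.00151). These were 2 of 29 members with an adjusted p in the authors' deposited table, where 1.23% of all genes were lower and 0.119% higher, and 0 members were higher. By limma on log2(RPKM + 0.5) the change of Ddit4 was -0.49 (SE 0.22) and that of Ddit3 -0.48 (SE 0.24), each with an adjusted p of 1, and those of Slc6a9 and Shmt2 were -0.38 and -0.22. Limma called 0 of 34 tested members and 0% of all genes. Its unadjusted p was under 0.05 for 0 members and 0.443% of genes, and on recovered reads limma-voom called 0 members. Cebpb and Vldlr were too low to be tested at 48 h and 96 h.

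Read gene by gene, 28 of the 34 tested members had a log2 change below 0 at 48 h and 6 above 0, against 46.16% of all genes above 0, with a median of -0.14 against -0.01 over all 12190 genes. Of the 34, 10 were lower in both siTdg libraries than in either siC library, against 10.1% of all genes, and 1, Hspa5, was higher, against 8.71%. Hspa5 had 253 and 264 RPKM in siTdg ESCs, against 232 and 249 RPKM in siC ESCs. Role by role over all 36, and with siTdg set against the siC library of the same replicate number, 6 of the 9 transcription factors, 6 of the 7 feedback and effector genes, 6 of the 7 amino acid transporters, 4 of the 6 serine and one-carbon enzymes and 3 of the 5 amino acid synthesis genes were lower in both. Atf5 and Jdp2 were the transcription factors higher in both. Over the 34 tested members 23 were lower in both replicate numbers, against 34% of all genes, and 3 higher, against 27.7%. With Atf4 at 172 and 207 RPKM in siTdg ESCs, against 173 and 213 RPKM in siC ESCs, the mRNA of the central factor overlapped between the groups. Asns likewise overlapped, at 471 and 539 RPKM in siTdg ESCs, against 461 and 556 RPKM in siC ESCs. Without siC replicate 2 or siTdg replicate 1 the median was -0.07 in each case.

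**Figure D2:**
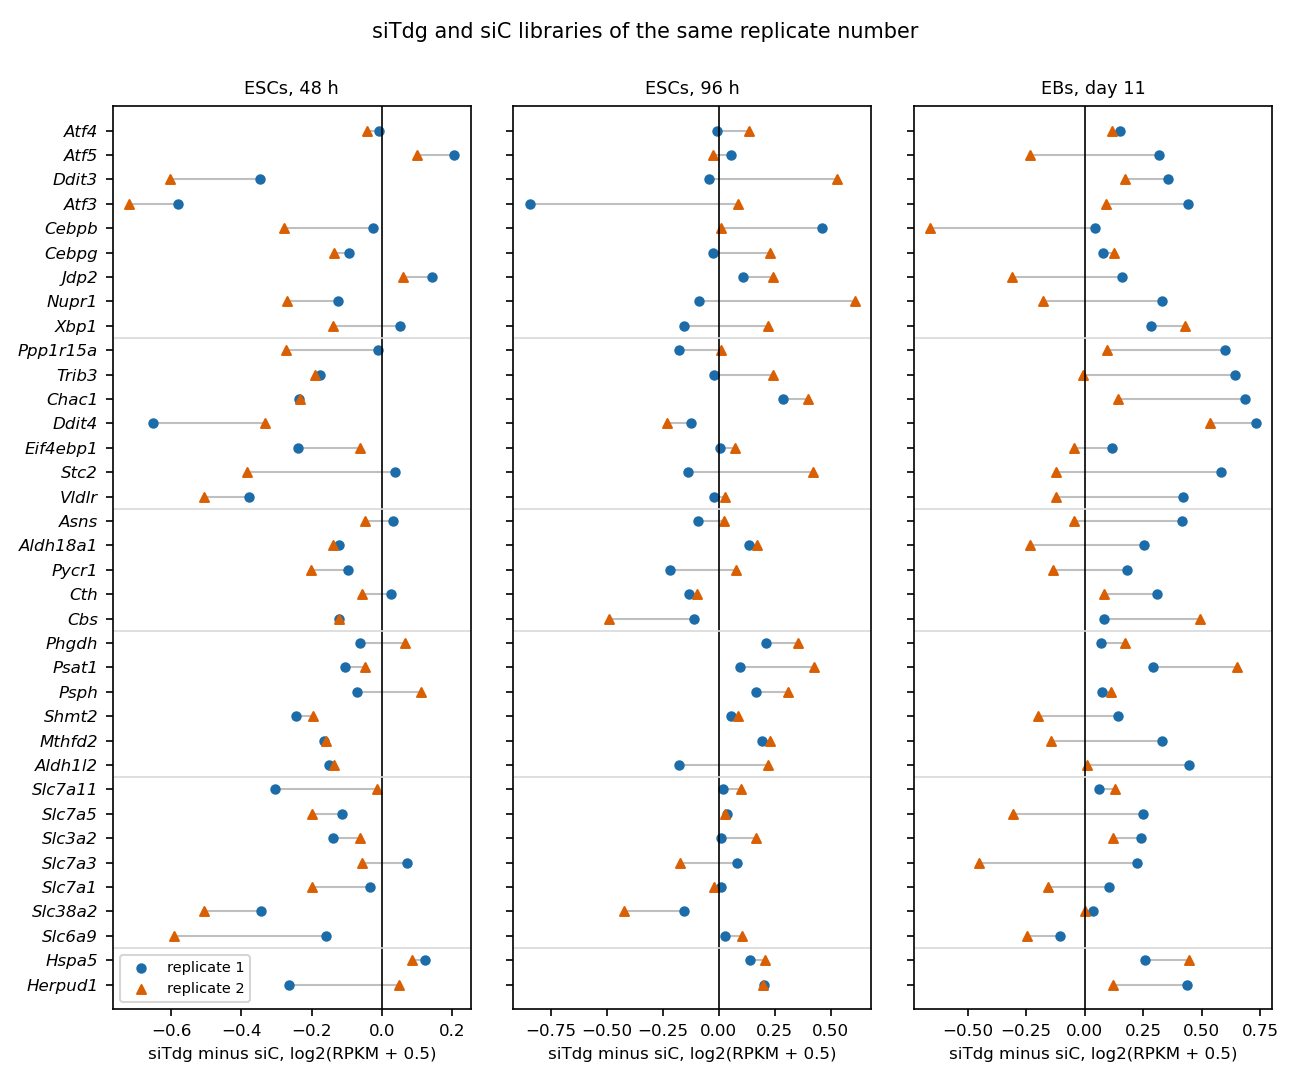
Difference between the siTdg library and the siC library of the same replicate number for each member, in log2(RPKM + 0.5), in ESCs at 48 h (left), ESCs at 96 h (middle) and day 11 EBs (right). Each panel has its own horizontal scale, circles are replicate 1, triangles replicate 2, and points left of the line at 0 are lower in siTdg. At 48 h 25 of the 36 genes have both points left of 0 and 3 have both right of it. At 96 h these counts are 4 and 16, and in EBs 1 and 19.

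At 96 h the stress response genes lay on both sides of their siC levels. Set against the siC library of the same replicate number, 16 of the 36 were higher in siTdg ESCs in both, 4 were lower in both and 16 were mixed. Of the 34 tested, 15 were higher in both, against 31.4% of all genes, and 4 lower, against 29.4%. Chac1 had 0.930 and 6.46 RPKM in siTdg ESCs, against 0.674 and 4.79 RPKM in siC ESCs. Psat1, an enzyme of serine synthesis, had 72.3 and 231 RPKM in siTdg ESCs, against 67.8 and 172 RPKM in siC ESCs. Slc38a2 had 39.7 and 13.5 RPKM in siTdg ESCs, against 44.4 and 18.3 RPKM in siC ESCs, and Cbs, which makes cystathionine, had 29.997 and 19.02 RPKM in siTdg ESCs, against 32.4 and 26.9 RPKM in siC ESCs. With Cth and Ddit4 these were the 4 lower in both replicate numbers. For Chac1 and Psat1 the siTdg library was above the siC library of its own number, while the groups overlapped because replicate 2 was far above replicate 1. Ddit4 was the single member of the 34 lower in both siTdg libraries than in either siC library (background 4.46%), at 29.7 and 32.2 RPKM in siTdg, against 32.4 and 37.8 RPKM in siC, and 0 tested members were higher (background 4.56%). Its log2 change was -0.18 (SE 0.22, adjusted p of 1 by limma).

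Of the 6 serine and one-carbon enzymes 5 were higher in siTdg ESCs in both replicate numbers at 96 h. Phgdh, which opens serine synthesis, had 22.1 and 105 RPKM in siTdg ESCs, against 19.1 and 82.2 RPKM in siC ESCs. Mthfd2, a mitochondrial folate enzyme, had 22.9 and 62.7 RPKM in siTdg ESCs, against 19.99 and 53.5 RPKM in siC ESCs. The spread between replicate numbers was several times the difference between siRNAs in each of these enzymes. Among the 34 tested members 24 had a change above 0, against 51.26% of all genes, with a median of 0.06 against 0.00 over all genes. The log2 change was 0.34 for Chac1, 0.28 for Phgdh, 0.26 for Psat1, 0.21 for Mthfd2, -0.29 for Slc38a2 and -0.30 for Cbs. Without siTdg replicate 2 it was -0.80, -0.83, -0.58, -0.51, 0.47 and 0.02 for these genes in that order, and without siC replicate 1 it was -0.74 for Chac1, -0.76 for Phgdh, -0.41 for Psat1, -0.49 for Mthfd2 and 0.34 for Slc38a2. At 96 h limma called 0 of 34 members and 0% of genes. An unadjusted p under 0.05 was reached by 0 members and 0.0902% of genes, and limma-voom made 0 calls among them. The authors' deposited table called 0 of 22 members, against 0.0481% of genes higher and 0.0962% lower. The median was -0.17 without siC replicate 1 and -0.21 without siTdg replicate 2, but 0.19 without siC replicate 2 and 0.29 without siTdg replicate 1, values that also hold the difference between replicate numbers.

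The difference between the siTdg effects at 96 h and at 48 h was tested directly. It was above 0 in 29 of 34 members, against 55.43% of all genes, with a median of 0.20 on the log2 scale against 0.02 over all 12190 genes. Chac1 had a difference of 0.58, Slc6a9 0.44, Mthfd2 0.37, Psat1 0.34 and Shmt2 0.29. No single one passed: limma called 0 of 34 and 0% of genes, with 0 members and 0.123% of genes at an unadjusted p under 0.05. By limma-voom 0 members passed. Without siC replicate 1 of 96 h the median was -0.07 and without siTdg replicate 2 of 96 h it was -0.12. Without siC replicate 2 of 96 h it was 0.38, and without siTdg replicate 1 of 96 h it was 0.43. Medians with a library left out also hold the difference between replicate numbers.

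In day 11 EBs Ddit4, Hspa5, Herpud1 and Chac1 were higher in both siTdg libraries than in either siC library, 4 of 35 tested members against 5.17% of all genes. Ddit4 had 51.3 and 43.1 RPKM in siTdg EBs, against 30.7 and 29.6 RPKM in siC EBs. Hspa5 had 447 and 458 RPKM in siTdg EBs, against 373 and 336 RPKM in siC EBs. Herpud1, which acts in ER-associated degradation, had 20.4 and 21.7 RPKM in siTdg EBs, against 14.9 and 19.9 RPKM in siC EBs. Chac1 was low throughout, with 1.68 and 0.880 RPKM in siTdg EBs, against 0.855 and 0.751 RPKM in siC EBs. Of the tested members 0 were lower without overlap (background 4.13%).

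On the log2 scale Ddit4 changed by 0.63 (SE 0.42), Chac1 by 0.41, Hspa5 by 0.35 and Herpud1 by 0.28 in EBs, each with an adjusted p of 1 by limma. With 1 library left out Chac1 ranged from 0.08 to 0.74 and Herpud1 from 0.08 to 0.48. Calls by limma, fitted without a term for replicate number, covered 0 of 35 members and 0% of genes. The unadjusted p lay under 0.05 in 0 members and 0.15% of genes, and 0 members passed by limma-voom. The authors' deposited table has 0 of 35 members past the threshold, against 0.0596% of genes higher and 0.0149% lower. Of the 35, 28 were above 0, against 54.40% of all genes, with a median of 0.12 against 0.02 over all genes. Of the 35, 18 were higher in siTdg in both replicate numbers, against 32.6% of all genes, and 1 lower, against 21.8%. The median was 0.26 between the replicate 1 libraries and 0.00 between those of replicate 2. The median was -0.16 without siC replicate 2 and -0.27 without siTdg replicate 1, but 0.30 without siC replicate 1 and 0.46 without siTdg replicate 2. Values with a library left out also hold the difference between replicate numbers. Markers of other cell types varied beside the values in EBs. The summed level of 10 yolk sac endoderm markers was 269 and 451 RPKM in siTdg EBs, against 171 and 281 RPKM in siC EBs, and that of 6 erythroid markers was 11.5 and 734 RPKM in siTdg EBs, against 5.10 and 320.2 RPKM in siC EBs. All 10 yolk sac markers reached 0.5 RPKM in a library of each group, while 3 of the 6 erythroid markers stayed under it in both libraries of siTdg EBs and 3 in both of siC EBs. Of the 10 yolk sac markers 7 had a log2 change above 0, and Afp had a mean of 213 RPKM in siTdg EBs, against 98.7 RPKM in siC EBs. Cardiac markers summed to 94.95 and 445 RPKM in siTdg EBs, against 118 and 200 RPKM in siC EBs. Neural markers summed to 7.87 and 2.23 RPKM in siTdg EBs, against 8.58 and 1.24 RPKM in siC EBs. The part of these markers in the values of the stress response genes was not tested.

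Between cell-cycle phases several of these genes differed without overlap, at shares near or below those of all genes. Of 35 tested members in siTdg cells 6 were higher in G2M, against 19.7% of all genes, and 4 lower, against 13.6%. In sorted siTdg ESCs Atf4 had 209.8 and 237 RPKM in G2M, against 158 and 189.9 RPKM in G1. The arginine and lysine carrier Slc7a1 had 32.8 and 28.0 RPKM in G2M, against 25.6 and 17.8 RPKM in G1. Stc2, the glycoprotein stanniocalcin 2, had 1.48 and 2.79 RPKM in G2M, against 0.845 and 1.17 RPKM in G1, and Slc6a9 had 1.43 and 1.503 RPKM in G2M, against 0.974 and 1.03 RPKM in G1. In the other direction Ppp1r15a, the GADD34 subunit that directs dephosphorylation of eIF2, had 23.7 and 21.6 RPKM in G2M, against 29.7 and 29.8 RPKM in G1. Hspa5 had 340 and 276 RPKM in G2M, against 412 and 385 RPKM in G1. For these 6 genes the phases did not overlap. Nor did they for Shmt2 and Slc7a5, higher in G2M, and for Atf5 and Cebpb, lower in G2M.

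The authors' deposited table for siTdg phases called 4 of 35 members higher in G2M, against 4.14% of all genes, and 2 lower, against 0.878%. Atf4 rose by 0.36 on the log2 scale (SE 0.11, adjusted p = 0.0174), Chac1 by 1.13 (SE 0.24, adjusted p = 0.000183), Slc7a1 by 0.50 (adjusted p = 0.00159) and Slc38a2 by 0.43 (adjusted p = 0.0120) in the authors' deposited table. There Ppp1r15a fell by 0.39 (adjusted p = 0.0473) and Hspa5 fell by 0.38 (adjusted p = 0.0126), as the authors' deposited table gives it. Chac1 had 4.81 and 13.3 RPKM in G2M, against 2.64 and 5.17 RPKM in G1, so its phases overlapped although G2M was higher within each replicate number. Limma's model here held no term for replicate number, and calls with such a term are given in the closing section. It called 0 of 35 members, while 0.144% of all genes were called higher and 0.0241% lower. At an unadjusted p under 0.05 there were 5 members, against 9.96% of genes, the lowest adjusted p of a member was 0.364, and limma-voom called 0 members. Its log2 changes were 0.77 for Stc2 (SE 0.30), 0.49 for Slc7a1 (SE 0.17), 0.39 for Slc6a9 (SE 0.17) and -0.39 for Ppp1r15a (SE 0.11).

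In sorted siC ESCs Atf4, Slc7a1 and Stc2 again stood higher in G2M and Ppp1r15a and Hspa5 lower. Chac1 had 5.91 and 7.29 RPKM in G2M, against 2.10 and 2.46 RPKM in G1. Atf4 had 200.2 and 212 RPKM in G2M, against 156 and 159 RPKM in G1, and Slc7a1 had 32.2 and 33.9 RPKM in G2M, against 25.04 and 25.3 RPKM in G1. Stc2 had 1.21 and 1.78 RPKM in G2M, against 0.569 and 1.05 RPKM in G1. Atf3 had 1.42 and 1.99 RPKM in G2M, against 1.02 and 1.34 RPKM in G1, and Herpud1 had 16.3 and 16.4 RPKM in G2M, against 12.8 and 12.3 RPKM in G1. All 6 were higher without overlap, of 35 tested, against 23.3% of all genes, and 4 were lower, against 17.8%. Lower without overlap were Ppp1r15a, with 22.1 and 18.6 RPKM in G2M, against 28.9 and 25.9 RPKM in G1, Hspa5, with 311 and 255 RPKM in G2M, against 393 and 338 RPKM in G1, and the smaller differences of Cebpg and Cth.

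In the authors' deposited table for siC phases 6 of 33 members rose in G2M, against 6.23% of all genes, and 2 fell, against 2.24%. Chac1 rose by 1.53 on the log2 scale (SE 0.25, adjusted p = 6.91e-08) and Atf4 by 0.39 (SE 0.06, adjusted p = 1.27e-07) in the authors' deposited table. It also gives Slc7a1 (0.39), Trib3 (0.42), a pseudokinase that restrains ATF4 and Akt, Herpud1 (0.38) and Slc38a2 (0.27), with adjusted p between 9.12e-07 and 0.0421. Ppp1r15a fell by 0.43 (adjusted p = 0.000597) and Hspa5 fell by 0.37 (adjusted p = 1.16e-08) in the authors' deposited table. Trib3 had 14.2 and 19.8 RPKM in G2M, against 10.3 and 15.3 RPKM in G1, a difference between phases smaller than that between replicate numbers, so its groups overlapped. Limma, fitted without a term for replicate number, gave 0 calls among 35 members, with 0.104% of all genes called higher and 0.016% lower. It gave 3 members with an unadjusted p under 0.05, against 8.12% of genes, and a lowest adjusted p of 0.383, that of Ppp1r15a (log2 change -0.42, SE 0.11). Limma-voom called 0 members. For Chac1 limma's log2 change was 1.35 (SE 0.46), for Stc2 0.62 and for Atf3 0.39.

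**Figure D3:**
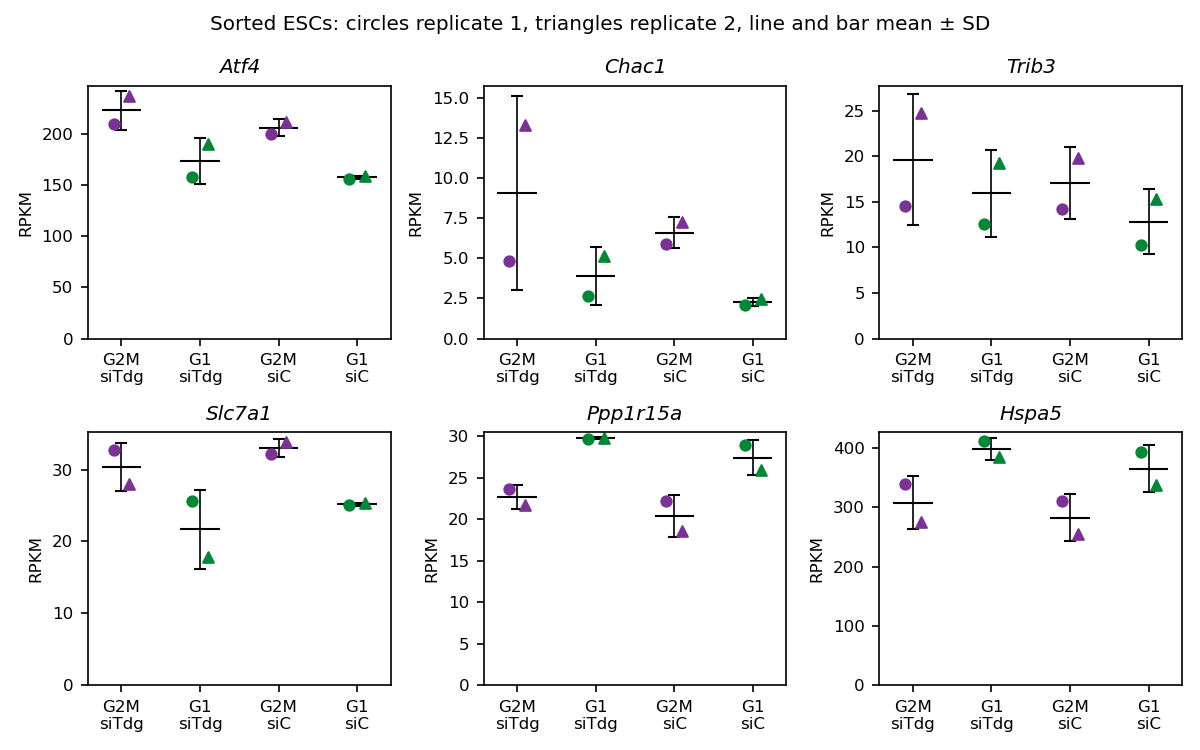
RPKM of 6 members in each sorted library, with G2M (purple) left of G1 (green) and siTdg left of siC; circles are replicate 1, triangles replicate 2, and lines with bars are the mean ± SD of 2 libraries. Atf4 and Slc7a1 stand higher in G2M and Ppp1r15a and Hspa5 lower, without overlap in either siRNA, whereas the G2M values of Chac1 in siTdg cells, 4.81 and 13.3 RPKM, lie far apart.

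Counted by libraries without overlap, the phases did not separate the list as a whole. In siTdg cells 6 of 35 tested members were higher in G2M without overlap, against 19.7% of all genes, and 4 lower, against 13.6%. In siC cells these counts were 6, against 23.3%, and 4, against 17.8%, so both shares lay near or below the background. By the authors' deposited calls the shares lay above it. For siTdg phases 4 of 35 members were higher, against 4.14% of genes, and 2 lower, against 0.878%. For siC phases 6 of 33 were higher, against 6.23%, and 2 lower, against 2.24%. The median log2 change was 0.08 in siTdg cells and 0.09 in siC cells, against 0.02 over all genes in each. By role, 6 of 7 amino acid transporters were higher in G2M in both replicate numbers in siTdg cells and 6 of 7 in siC cells. Of the 6 serine and one-carbon enzymes 2 were higher in both in siTdg cells and 5 in siC cells. Of the 35 tested members 15 in siTdg cells and 20 in siC cells were higher in both, and 8 and 9 lower. Over all genes, 38.1% in siTdg cells and 43.1% in siC cells were higher in both, and 27.2% and 33.2% lower. Of the 9 transcription factors 1 was higher in both replicate numbers in siTdg cells and 2 in siC cells, and 4 were lower in each. In siTdg cells the median was -0.06 without G1 replicate 1 and -0.08 without G2M replicate 2, 0.22 without G1 replicate 2 and 0.21 without G2M replicate 1. In siC cells it was -0.05 without G1 replicate 1 and -0.04 without G2M replicate 2, 0.24 without G1 replicate 2 and 0.20 without G2M replicate 1.

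**Figure D4:**
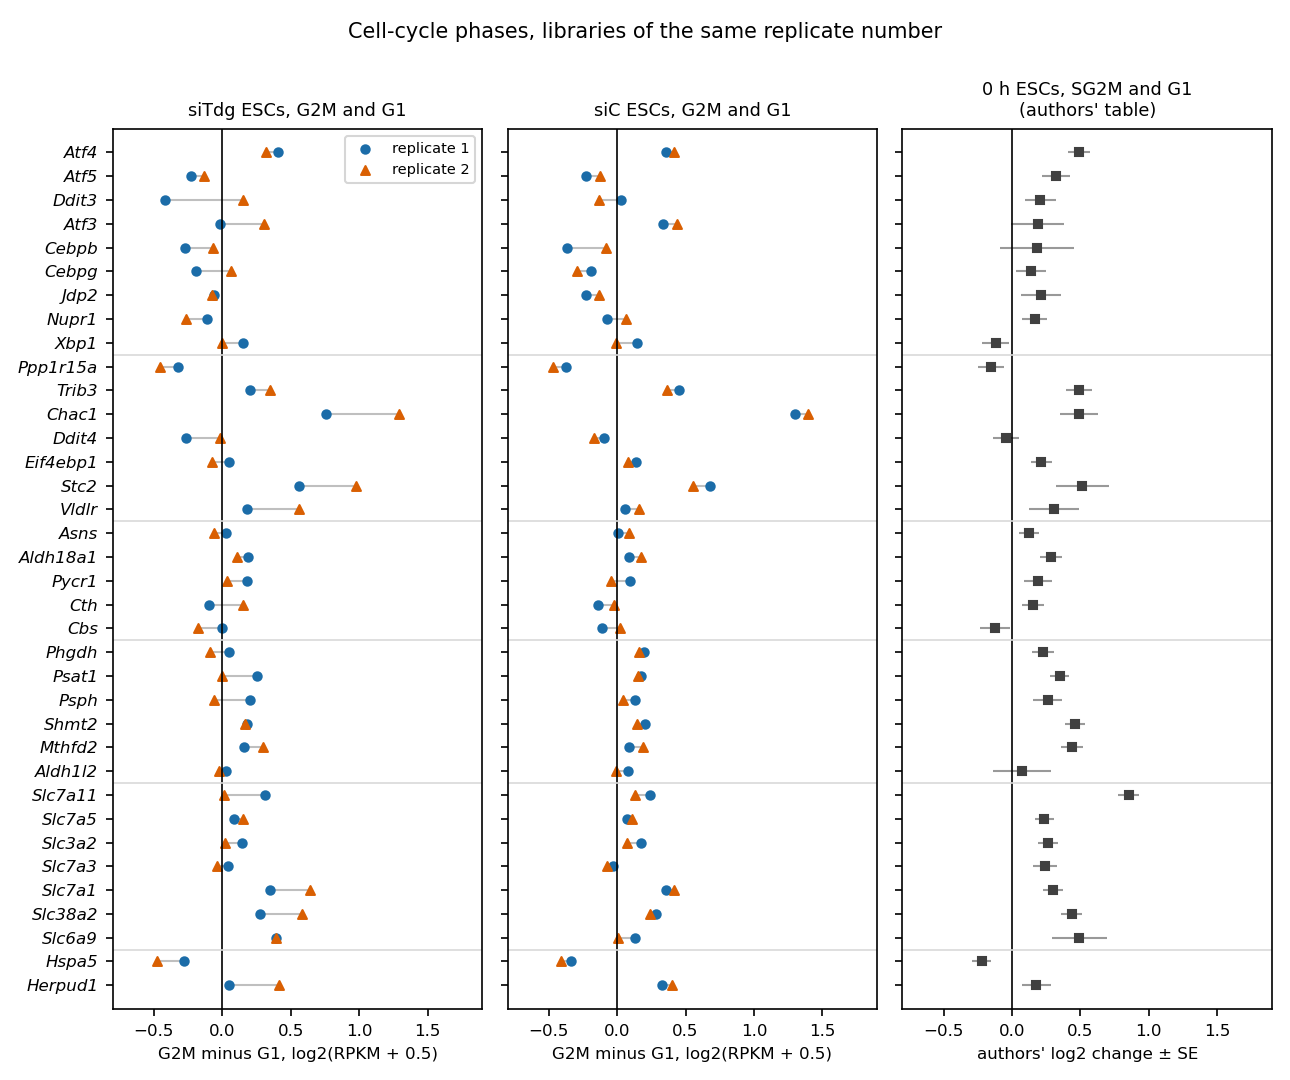
G2M minus G1 for each member in siTdg ESCs (left) and siC ESCs (middle), in log2(RPKM + 0.5) between libraries of the same replicate number (circles replicate 1, triangles replicate 2), and the authors' log2 change ± SE for SG2M minus G1 at 0 h (right). Points right of 0 are higher in G2M or SG2M. Chac1 lies farthest right among siC phases, with a log2 change of 1.35, and Slc7a11 at 0 h, with 0.85.

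The authors' deposited table for cells at 0 h compares SG2M, the phases S, G2 and M together, with G1, and signs are given here as SG2M minus G1. In it 15 of 36 members rose, against 8.87% of all genes, and 1, Hspa5, fell, against 2.69%. Slc7a11, the cystine carrier that feeds glutathione synthesis, had the largest change of the list, 0.85 on the log2 scale (SE 0.08, adjusted p = 1.29e-26) in the authors' deposited table. Atf4 and Trib3 rose by 0.49 each (adjusted p = 1.87e-07 and 1.01e-05), and Chac1 rose by 0.49 as well (SE 0.14, adjusted p = 0.00717), in the authors' deposited table. Among serine and one-carbon enzymes Shmt2 rose by 0.46, Mthfd2 by 0.44, Psat1 by 0.35 and Phgdh by 0.23, with adjusted p between 9.12e-08 and 0.0391 in the authors' deposited table. Of the 7 amino acid transporters 6 rose, among them the light chain Slc7a5 (0.24) and its heavy chain Slc3a2 (0.26), which together import leucine, with Slc6a9 (0.49, adjusted p = 0.0944) the exception in the authors' deposited table. Atf5 (0.32) and the proline synthesis enzyme Aldh18a1 (0.28) made up the 15 in the authors' deposited table, where Hspa5 fell by 0.22 (adjusted p = 0.0214). Asns was at 0.13 and Ddit3 at 0.21 in the authors' deposited table, neither past the threshold. The cells at 0 h are not among the libraries fitted here, so these values have no value per library.

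Within a phase, siTdg and siC cells were compared across both deposited tables of sorted cells, which imply equal gene lengths. In G1, 10 of 35 tested members were higher in both siTdg libraries than in either siC library, against 11.6% of all genes, and 2, Cebpg and Slc7a3, were lower, against 14.1%. Ddit3 had 11.2 and 9.16 RPKM in siTdg G1, against 7.27 and 7.01 RPKM in siC G1. Chac1 had 2.64 and 5.17 RPKM in siTdg G1, against 2.10 and 2.46 RPKM in siC G1. Nupr1, a stress-induced chromatin protein, had 38.7 and 53.7 RPKM in siTdg G1, against 27.1 and 36.8 RPKM in siC G1, and Atf3 had 1.35 and 2.32 RPKM in siTdg G1, against 1.02 and 1.34 RPKM in siC G1. In each of these genes the gap between the groups was narrow beside the spread of the siTdg libraries, apart from Ddit3.

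The log2 change within G1 was 0.48 for Ddit3 (SE 0.15), 0.60 for Chac1 (SE 0.46), 0.52 for Nupr1 and 0.45 for Atf3, each with an adjusted p of 0.916 by limma. For G1 limma called 0 of 35 members, with 0% of genes called higher and 0.00802% lower. Of the 35, 2 members had an unadjusted p under 0.05, against 3.43% of genes, and 0 were called by limma-voom. The members' median was 0.13 against 0.00 over all genes, with 27 of 35 above 0, against 50.20% of genes. In both replicate numbers 24 of the 35 were higher in siTdg, against 29.9% of all genes, and 3 lower, against 34.1%. In terms of role, 8 of 9 transcription factors, 6 of 7 feedback and effector genes and 5 of 5 amino acid synthesis genes were higher in siTdg in both replicate numbers, but 1 of 7 transporters. The median was 0.00 without siC replicate 1 and -0.01 without siTdg replicate 2, 0.22 without siC replicate 2 and 0.26 without siTdg replicate 1.

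In G2M, Ddit3, Cth and Slc6a9 were higher in both siTdg libraries than in either siC library, 3 of 35 against 14.5% of all genes, and 0 were lower, against 10.5%. Ddit3 had 8.28 and 10.2 RPKM in siTdg G2M, against 7.43 and 6.35 RPKM in siC G2M. Cth, which makes cysteine from cystathionine, had 42.4 and 45.6 RPKM in siTdg G2M, against 34.8 and 34.4 RPKM in siC G2M. Slc6a9 had 1.43 and 1.503 RPKM in siTdg G2M, against 1.03 and 1.33 RPKM in siC G2M. The log2 changes were 0.40 for Ddit3 (SE 0.15), 0.34 for Cth (SE 0.10) and 0.23 for Slc6a9 (SE 0.17), each with an adjusted p of 1 by limma. There too limma called 0 of 35 members, with 0% of genes called higher and 0.00802% lower. An unadjusted p under 0.05 went to 2 members and 2.06% of genes, and limma-voom called 0 members. Higher in siTdg in both replicate numbers were 18 of the 35, against 34.1% of all genes, and lower 2, against 26.8%. The median was 0.12 against 0.01 over all genes, with 29 of 35 above 0, against 54.58% of genes, and it was 0.02 without siC replicate 1, 0.00 without siTdg replicate 2, 0.21 without siC replicate 2 and 0.25 without siTdg replicate 1.

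Ddit3 thus stood higher in siTdg cells in both sorted phases, at 0.40 in G2M and 0.48 in G1 on the log2 scale, and lower in siTdg ESCs at 48 h, at -0.48, none of them past the threshold by limma. The G1 and G2M comparisons share no library, but the labels do not say whether both phases of a number came from 1 culture. Whether the phase effect differed between siTdg and siC cells was tested as an interaction. By limma 0 of 35 members and 0% of genes passed, with an unadjusted p under 0.05 for 0 members and 0.289% of genes. By limma-voom 0 members passed, and the members' median was -0.01, against 0.02 over all genes. That the authors' deposited table calls Trib3 and Herpud1 for siC phases and not for siTdg phases is not in itself a difference between siRNAs.

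EBs differed from ESCs in the level of many of these genes. The 4 EB libraries lay below all 16 ESC libraries in 13 of the 36 genes (36.1%), against 27.6% of 12722 genes, and above all of them in 3 (8.33%), against 20.1%. Asns had a lowest value of 9.66 RPKM, a median of 13.2 RPKM and a highest of 22.2 RPKM in EBs, against 366, 459 and 556 RPKM in ESCs. Cbs had 0.0428, 0.179 and 0.265 RPKM in EBs, against 13.4, 18.3 and 32.4 RPKM in ESCs, and Cth had 1.67, 3.81 and 5.80 RPKM in EBs, against 34.4, 61.7 and 98.7 RPKM in ESCs. The genes of both steps from homocysteine to cysteine were therefore lower in EBs.

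The amino acid transporters Slc7a3 (1.60, 1.89 and 2.68 RPKM in EBs, 35.1, 43.1 and 64.3 RPKM in ESCs), Slc7a5, Slc7a1 and Slc3a2 were lower in EBs too, with a difference of medians on the log2 scale between -4.19 for Slc7a3 and -1.62 for Slc3a2. Slc7a11 overlapped, at 13.9, 22.0 and 32.3 RPKM in EBs, against 12.2, 14.9 and 17.5 RPKM in ESCs. Psat1, Shmt2 and Mthfd2 were lower, whereas Phgdh overlapped, at 47.1, 61.8 and 83.4 RPKM in EBs, against 19.1, 67.1 and 105 RPKM in ESCs. Atf4 had 82.0, 89.4 and 99.6 RPKM in EBs, against 132, 193 and 237 RPKM in ESCs, and Trib3 had 1.37, 1.898 and 4.05 RPKM in EBs, against 10.3, 18.1 and 26.3 RPKM in ESCs.

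Higher in EBs were Atf3, with 8.86, 17.7 and 35.5 RPKM in EBs, against 0.211, 1.47 and 3.99 RPKM in ESCs, Vldlr, a lipoprotein receptor, with 4.50, 5.61 and 6.19 RPKM in EBs, against 0.143, 0.365 and 0.7496 RPKM in ESCs, and the mitochondrial folate enzyme Aldh1l2. Ddit3 had 16.3, 21.3 and 24.6 RPKM in EBs, against 6.35, 9.65 and 23.1 RPKM in ESCs, and overlapped. Members of the list therefore lay on both sides: Atf4, Asns and most transporters lower, Atf3 higher. EBs hold other cell types than ESCs, with yolk sac endoderm markers summing to 171 to 451 RPKM in EBs, against 0.967 to 3.34 RPKM in ESCs, and cardiac markers to 94.95 to 445 RPKM in EBs, against 3.19 to 11.6 RPKM in ESCs. The part of that makeup in these levels was not tested. Tables were scaled separately, and no test was made between EBs and ESCs. On 1 scale over all 20 libraries the counts were 13 lower and 3 higher as well.

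**Figure D5:**
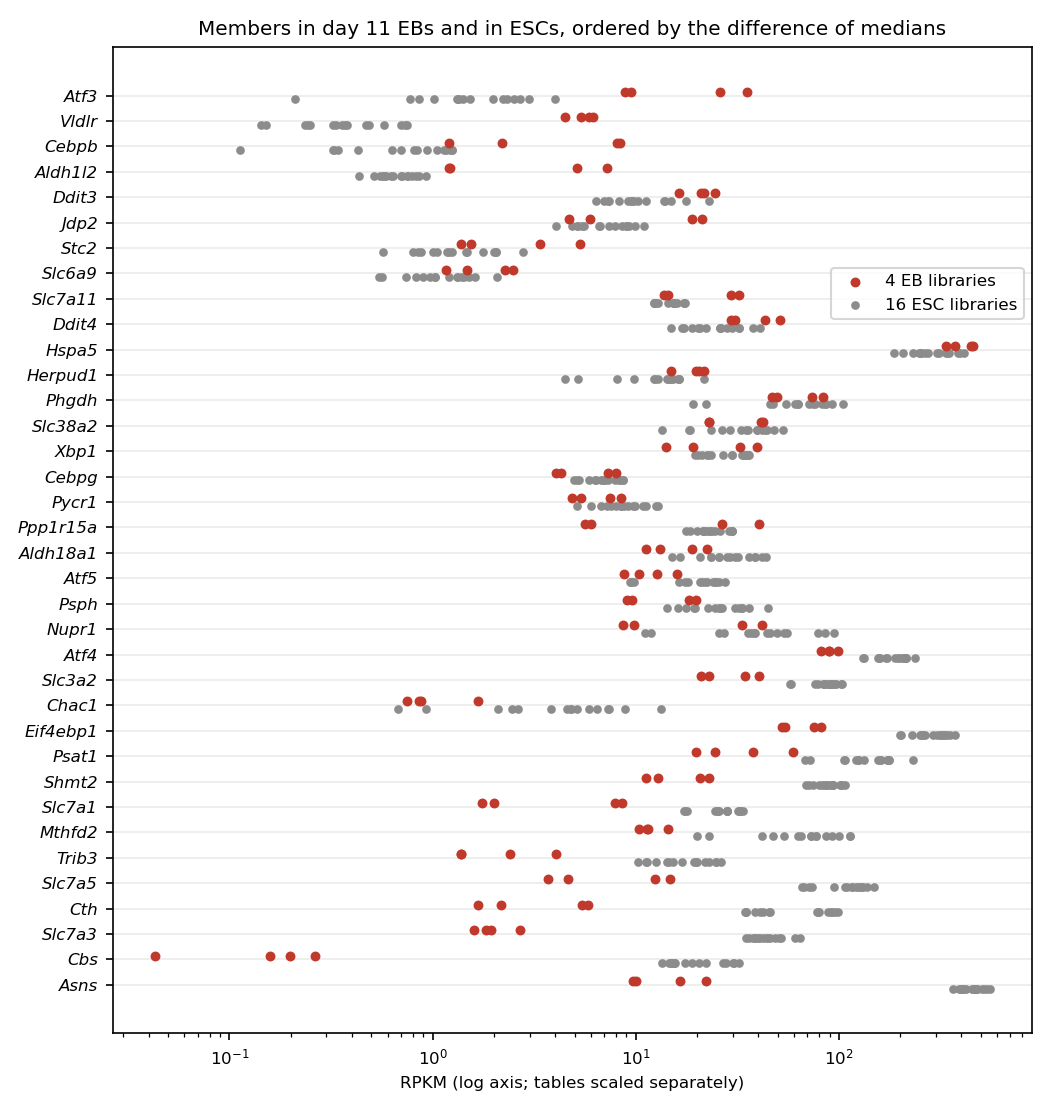
RPKM of each member on a log axis in the 4 day 11 EB libraries (red, upper row of each gene) and the 16 ESC libraries (grey, lower row), ordered by the difference of medians. Asns, Cbs and Slc7a3 at the bottom have all EB points far left of the ESC points, and Atf3 and Vldlr at the top have them to the right.

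Replicates of a group differed more than siRNAs did for most of these genes, in 30 of 35 in EBs, 30 of 34 at 96 h and 24 of 35 at 48 h, where the libraries compared reached a mean of 0.5 RPKM. Over all genes these shares were 88.2% in EBs, 88.2% at 96 h and 76.9% at 48 h. In EBs the median absolute log2 difference over 35 members was 0.15 between siTdg and siC and 0.826 between replicate numbers, against 0.121 and 0.714 over all 13300 genes. At 96 h these values were 0.113 and 0.46 over 34 members, and at 48 h 0.144 and 0.257 over 35. Ppp1r15a illustrates this in EBs, with 40.5 and 6.04 RPKM in siTdg, against 26.5 and 5.63 RPKM in siC. At 96 h Nupr1 had 11.2 and 85.5 RPKM in siTdg, against 11.9 and 55.9 RPKM in siC. In both cases replicate 1 and replicate 2 form the wide gap, in one direction for both siRNAs. Between sorted libraries the members' median difference between replicate numbers was 0.242 in siTdg cells and 0.269 in siC cells, near the value at 48 h. Over all genes it was lower, at 0.199 in siTdg cells and 0.137 in siC cells.

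Genes around the list were read from 4 further lists of the pathway. Of 20 cytosolic aminoacyl-tRNA synthetases, many of them ATF4 targets, 18 in siTdg cells and 20 in siC cells were above 0 for G2M minus G1, with medians of 0.09 and 0.12. Over all genes 54.65% in siTdg cells and 54.97% in siC cells were above 0. Of 18 genes of ER chaperones and ER-associated degradation, 2 in siTdg cells and 2 in siC cells were above 0, with medians of -0.11 and -0.13, the direction of Hspa5. The lowest values there were those of Sdf2l1 in siTdg cells (log2 change -0.30; 23.1 ± 0.582 RPKM in G2M, 28.5 ± 0.206 RPKM in G1) and Dnajb9 in siC cells (-0.37; 7.93 ± 0.263 RPKM in G2M, 10.4 ± 0.841 RPKM in G1; SD, n = 2 each), both partners of BiP and neither called by limma. Among 17 tested other ATF4 and CHOP targets Sqstm1, the autophagy receptor p62, had -0.69 in siTdg cells and -0.62 in siC cells, and the neutral amino acid carrier Slc1a4 had 0.57 and 0.45. For siTdg minus siC at 48 h these lists had 4 of 20, 2 of 18 and 4 of 17 genes above 0, and 6 of 12 for the eIF2 kinases, eIF2 and eIF2B, against 46.16% of all genes. Limma called 0 genes of these 4 lists in any comparison made here.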

How the data were processed

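Of the series, 20 RNA libraries were analysed, each placed in its group by its title. Ribosomal RNA was removed before stranded library preparation, per the labels' protocols. The submitters' processing notes name TopHat, DESeq2 and build mm9, while the annotation and the counting settings are not stated in the sources used here. The authors deposited RPKM in 1 table for each pair of groups, every table scaled separately. Their deposited results hold log2 fold changes with standard errors, p-values with adjusted values, and a signal per gene, the mean normalised count, under column names that DESeq2 gives, per the file headers. Signs of the authors' deposited results at 0 h, 48 h and 96 h were turned to siTdg minus siC or SG2M minus G1. A further 4 RPKM columns, of 0 h cells, could be tied to no sample and stayed out, and the day 9 EBs and the binding, modified DNA and accessibility data were not analysed here.

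Reads were recovered from RPKM through the authors' mean normalised counts, and 100% of positive values of the recovered genes came out whole within 0.01 reads; at 96 h 17 genes with reads were not recovered. Gene lengths implied by both tables of sorted cells agreed within 0.1% for 19249 of 19249 genes. Within a group the lowest chi-square per degree of freedom between libraries was 19.4, so none was a duplicate. Tests used limma 3.58.1 (R 4.3.3) on log2(RPKM + 0.5), which understates changes of low genes, for genes averaging 0.5 RPKM or more. The eBayes prior followed a trend, tests were two-sided, p-values were adjusted by Benjamini-Hochberg over all tested genes, and calls needed an adjusted p under 0.05. One model each held the 8 unsorted ESC, 4 EB and 8 sorted libraries, with no term for replicate number, and was tested on simulated data. Figures came from matplotlib 3.10.9 (Python 3.11.15).

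The members, their roles, the pathway lists and the marker lists were chosen with earlier results of these data known. By the rule for named genes, values per library are given for 7 core members (Atf4, Ddit3, Trib3, Asns, Chac1, Ppp1r15a and Psat1) where they bear on a result, for called members and for up to 4 with the largest change among members of at least 1 RPKM whose groups do not overlap. The choice of other members given by library followed a look at their values. Of the pathway lists, the largest change up or down may be named. Promoters are RefSeq's, of build GRCm38.p6, and no position was compared with the mm9 data. Alternatives were pseudocounts of 0.1 and 1, no filter or one at 2 RPKM, quantile normalization, no trend, limma-voom, the libraries of a comparison alone, a replicate block and leaving out each library.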

Additional observations from a re-analysis of the deposited data

Results flagged for a closer look

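In 11 of the 36 genes siTdg ESCs were below siC ESCs in both replicate numbers at 48 h and above them in both at 96 h. Of the 34 genes tested it was 10, against 6.12% of all 12190 genes. Values are the siTdg minus siC difference in log2(RPKM + 0.5) at 96 h minus that at 48 h. The difference was 0.58 for Chac1, 0.44 for the glycine carrier Slc6a9, 0.39 for Cebpb, 0.37 for Mthfd2, 0.34 for Psat1, 0.29 for Shmt2, 0.28 for Aldh18a1 and 0.22 for Slc7a11. It was 0.19 for each of Eif4ebp1, Slc7a5 and Slc3a2. Within a single replicate number some siTdg minus siC differences were very small, so their signs carry little weight. At 96 h replicate 1 gave 0.0031 for Eif4ebp1 and 0.00878 for Slc3a2, and replicate 2 gave 0.00837 for Cebpb. At 48 h replicate 2 gave -0.0141 for Slc7a11. The interaction was tested for 10 of the 11 genes, each with an adjusted p of 1 by limma. Leaving out siC replicate 1 of 96 h gave -0.51 for Chac1, -0.33 for Psat1, -0.33 for Mthfd2, -0.22 for Eif4ebp1 and -0.10 for Slc3a2, and leaving out siTdg replicate 2 of 96 h gave -0.57, -0.50, -0.35, -0.25 and -0.18 for these genes in that order. Values with a library left out also hold the difference between replicate numbers. For Chac1 at 96 h, replicate 2 minus replicate 1 was 2.28 on the log2 scale in siTdg ESCs and 2.17 in siC ESCs. The difference of Cebpb, a gene under the filter on low values in these 8 libraries, was not tested. Of the 11, Psat1, Shmt2 and Mthfd2 are serine and one-carbon enzymes and Slc7a11, Slc7a5, Slc3a2 and Slc6a9 amino acid transporters.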

How the results depend on the processing

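Replicate numbers are shared by all groups, but the labels do not say what they mark and each group has 2, so the numbers were not taken as pairs. Deviations from the group means were nonetheless correlated between libraries of 1 number in different groups, at 0.534 to 0.951 over all genes and 0.496 to 0.973 over the members. With the replicate block limma called 6 members for siTdg phases (Atf4, Chac1, Slc38a2 and Stc2 higher in G2M, Ppp1r15a and Hspa5 lower) and 6 for siC phases (Atf4, Chac1, Stc2 and Trib3 higher, Ppp1r15a and Hspa5 lower). In EBs it called 1, Ddit4, higher in siTdg (adjusted p = 0.00921). By limma-voom with the block, an alternative chosen after seeing the data, these counts were 7 (with Slc7a1), 6 and 1 (Ddit4, adjusted p = 0.0315). In each of these comparisons 35 members were tested. Over all genes the block gave 985 calls of 12462 for siTdg phases, 614 of 12462 for siC phases and 150 of 13300 in EBs. Without it there were 21, 15 and 0 calls, and limma-voom with the block gave 1354, 905 and 96. In the other 6 comparisons 0 members were called with the block, and under the other settings and with each library left out 0 members were called in all 9.

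The median log2 change of members at 48 h was -0.12 for genes of at least 2 RPKM and -0.11 with quantile normalization, which gave 0.05 for siTdg phases, 0.04 for siC phases, 0.09 within G1 and 0.02 for the difference between phase effects. For that difference limma-voom gave -0.01 with and without the block. With 1 library left out the medians ranged from -0.17 to -0.07 at 48 h, from -0.21 to 0.29 at 96 h, from -0.12 to 0.43 for the difference between times, from -0.27 to 0.46 in EBs, from -0.08 to 0.22 for siTdg phases, from -0.05 to 0.24 for siC phases, from -0.01 to 0.26 within G1, from 0.00 to 0.25 within G2M and from -0.14 to 0.10 for the difference between phase effects. A group left with 1 library is assumed to vary like the others. In every comparison, values with a library left out also hold the difference between replicate numbers. For 11 of 52 log2 changes of named genes the sign turned with siC replicate 1 or siTdg replicate 2 of 96 h left out. The range was -0.80 to 1.48 for Chac1, -0.83 to 1.39 for Phgdh, -0.58 to 1.09 for Psat1, -0.51 to 0.93 for Mthfd2, -1.05 to 0.47 for Slc38a2 and -0.62 to 0.02 for Cbs at 96 h. For the difference between times it was -0.57 to 1.72 for Chac1, -0.50 to 1.17 for Psat1, -0.35 to 1.09 for Mthfd2, -0.25 to 0.63 for Eif4ebp1 and -0.18 to 0.55 for Slc3a2. A further 29 kept their sign and moved by over 1.5 times, among them Ddit4 at 48 h (-0.76 to -0.22) and Chac1 within G1 (0.18 to 1.03), and 12 moved by less. Where groups do not overlap, that choice fixes the sign. The count of genes lower in all EB libraries than in all ESC libraries stayed at 13, and that of genes higher was 3 or 4. Fitting the libraries of a comparison alone does not apply to the interactions or to EBs, whose model holds no others. Low genes rest on few reads, 2 at the fewest.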
